A study of Mus musculus with 4 samples.

Results

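Articular cartilage of young mice was compared by RNA sequencing 3 days after injury with cartilage of sham-operated young mice. The comparison takes in all genes of the deposited expression table, with no gene chosen by its value, and 17702 of 24532 genes were above 0 in 1 or both of the young libraries. It uses 2 of the 4 libraries of the series. The study asked which genes respond to a cartilage injury in young mice, whose cartilage can repair itself, and in adult mice, whose cartilage does so poorly.

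Articular cartilage is built by a single cell type, the chondrocyte, which lays down a mesh of type II, IX and XI collagen filled with aggrecan bound to hyaluronan. The tissue has no vessels of its own, and its surface layer makes lubricin, the product of Prg4. An injury through the full depth of cartilage reaches the bone and marrow beneath it, from where blood and marrow cells can enter the defect. In the first days of a wound, phagocytes clear debris, proteases open the matrix, and a provisional matrix rich in fibronectin is laid down before any new tissue forms.

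All mice were wild-type C57BL/6. The young sham and the young injured mice were 3 weeks old, and cartilage was taken on day 3 in both. Following the study's methods, the injury was a full-thickness cartilage injury (FTCI) made with a needle in the patellar groove of the left knee, whereas the labels of the samples speak of DMM, an operation that destabilizes the medial meniscus. The injured library was made from a pool of 10 mice and the sham library from a pool of 5 mice. Each group is thus 1 pooled library, and no difference given here has a replicate check. The adult sham and adult injured libraries are used only where their values stand beside the young ones. Their mice are given as 12 weeks old in the sample titles, 14 weeks in another label and 10 weeks in the study's methods. Adult injured cartilage was taken on day 3, whereas the label of the adult sham library gives days 3 to 14, so that the adult pair is not matched by day. Young and adult mice have separate sham libraries.

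The authors deposited FPKM, a count of fragments divided by the length of the transcript and by the library's mapped fragments. Summed over the table, FPKM came to 492173 in young sham and 533468 in young injured cartilage, with 12194 and 12543 genes at 1 FPKM or more. Whole fragments could not be recovered from FPKM, so no counting error is given. If the smallest steps in the values of 17546 genes with a single transcript are single fragments, the libraries held about 26200000 and 26300000 fragments. Changes are log2 ratios of FPKM + 1, injured to sham, so that changes at low levels are understated by the added 1 FPKM. A gene is said to have risen or fallen only if the ratio reached 2-fold, which is 1 on the log2 scale. The number of genes past 2-fold in a list moved by over 1.5 times in 34 of 102 lists with 0.1 FPKM added in place of 1 and in 49 with 5 FPKM added, so that counts of low genes hold only for the added 1. For a gene listed at 0 in a library only its FPKM are given. Levels are compared between genes only as FPKM, which are per length.

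The label of the samples, cartilage chondrocytes, was checked first. The 15 chondrocyte markers summed to 26491 FPKM in sham and 23887 FPKM in injured cartilage, and Col2a1, which encodes type II collagen, was at 9349 and 7903 FPKM. Other tissues were also present. The 6 globin genes summed to 24370 and 43190 FPKM, or 4.95% and 8.10% of all FPKM, and 20 skeletal muscle markers to 1120.04 and 889.8 FPKM. Macrophage markers, 20 genes, summed to 218 FPKM in sham and 2039 FPKM in injured cartilage. The libraries are thus mixtures of cartilage with blood and other tissues. In such bulk samples, more cells of a type and more RNA per cell cannot be told apart. How much of each change below follows the share of blood or marrow cells in the pool was not tested.

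Injury was followed by more rises than falls. In young injured cartilage 830 genes were higher (4.69% of the 17702) and 230 genes lower (1.30%), while 16642 stayed within 2-fold. The median log2 ratio over all 17702 genes was −0.0061, and it was −0.03 over the 11833 genes of at least 1 FPKM in both libraries. Rises outnumbered falls at every level of expression. Among 666 genes with a mean of 100 FPKM or more, 43 rose and 17 fell, and among 2359 genes between 20 and 100 FPKM, 105 rose and 47 fell. The 15 housekeeping genes had a median of 0.047 with 0 past 2-fold, and the 84 cytosolic ribosomal protein genes a median of −0.079, also with 0 past 2-fold.

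**Figure D1:**
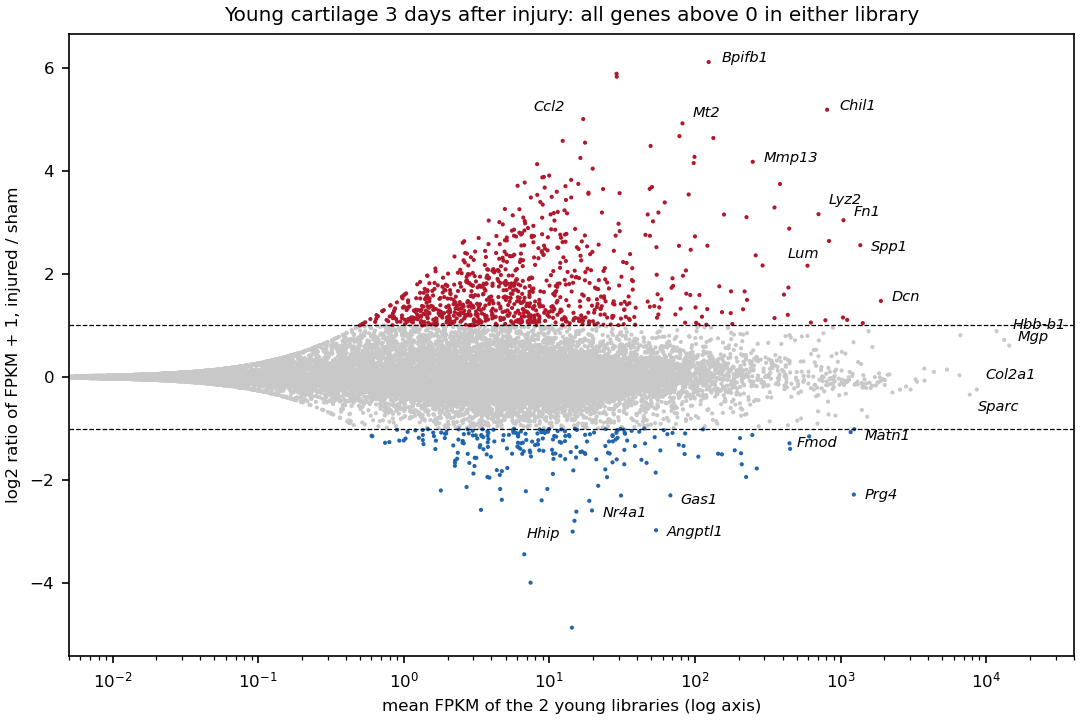
Log2 ratio of FPKM + 1, young injured to young sham, against mean FPKM on a log axis, with each gene as a point and 1 pooled library per group. The points past 2-fold, 830 above and 230 below, lie mostly above the zero line, and the secreted defence gene Bpifb1 is the highest labelled point.

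Of the 8313 genes whose mean over both libraries reached 5 FPKM, 456 were higher (5.49%) and 152 lower (1.83%), and the 15 steepest rises of them were led by Bpifb1, which encodes a secreted protein related to bactericidal proteins. The gene lies at chr2:154190818-154220343 (GRCm38.p6, as are all positions here). Its FPKM went from 2.58 to 246 FPKM, a log2 ratio of 6.11. Chil1, which encodes a chitinase-like glycoprotein made by chondrocytes and phagocytes, rose from 42.4 to 1576 FPKM (5.18). The monocyte attractant Ccl2 rose from 0.0948 to 34.1 FPKM (5.002), and the metallothionein Mt2 rose from 4.32 to 159.9 FPKM (4.92). Others of the 15 were the proteases Mmp3, Mmp13 and Ctss, the acute phase gene Saa3, the haem-degrading enzyme Hmox1, the chemokine Ccl6, the complement genes C1qb and C3ar1, the phagocyte membrane gene Ms4a6d and Eno1b. Log2 ratios of these ran from 4.15 for C1qb upwards, and the first gene outside the 15 had 4.13. Eno1b went from 0.0432 to 58.05 FPKM, but 89.0% of its transcript words are shared with another gene, so that its reads cannot be safely told from those of its copy Eno1, which was at 861 and 1057 FPKM.

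The 15 largest falls held signalling genes of several kinds. Hhip, which encodes a Hedgehog-binding protein and is itself a Hedgehog target, fell from 26.5 to 2.44 FPKM, a log2 ratio of −2.998. Angptl1, a secreted angiopoietin-like factor, fell from 96.7 to 11.5 FPKM (−2.97), and Prg4 fell from 2049 to 421 FPKM (−2.28). Prg4 lies at chr1:150449412-150466221 and was the most abundant gene among these falls. Nr4a1 and Nr4a2, nuclear receptors of the immediate early kind, fell from 34.4 to 4.88 FPKM (−2.59) and from 11.99 to 1.8 FPKM (−2.21). Others were Gas1, a Hedgehog co-receptor, Casr, the calcium-sensing receptor, the matrix genes Spon1 and Itih5, the axon guidance gene Sema3e, the calcium-binding protein gene Tesc, and Mdm4, an inhibitor of p53, at 26.7 and 3.02 FPKM. Mup5, a major urinary protein gene, was at 13.1 and 0.306 FPKM, and 37.0% of its words are shared with other genes. Hist2h2aa2 went from 28.6 to 0.018 FPKM, but all of its words are shared with its copy Hist2h2aa1, which was at 30.4 and 31.4 FPKM, and the change of Hist2h2aa2 is uncertain for that reason. Gm13363 was at 14.9 FPKM in sham and listed at 0 in injured cartilage, with 82.9% of its words shared.

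Measured in FPKM instead of ratios, the largest gains were in blood and matrix genes. The globins Hba-a2, Hbb-b1 and Hbb-b2 gained most beside Mgp, the matrix Gla protein that keeps cartilage from calcifying. Mgp was the most abundant gene of both libraries at 11419.9 and 17434 FPKM, and its log2 ratio of 0.61 is short of 2-fold. The other 6 large gains, of Spp1, Dcn, Fn1, Chil1, Lum and Lyz2, were all past 2-fold. The largest losses in FPKM held several cartilage matrix genes. Sparc was at 8634 and 6815 FPKM (−0.34) and Col2a1 at 9349 and 7903 FPKM (−0.24), both within 2-fold, while Prg4, Matn1 and Fmod were past it. The remaining losses, of 1500015O10Rik, Mfge8, Itm2a, Clec3a and Ctgf, had log2 ratios of −0.77, −0.64, −0.24, −0.30 and −0.75.

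The collagens of the cartilage fibril did not pass 2-fold in either direction. Of 7 genes, 6 had a ratio below 0, and the median was −0.28 against −0.0061 over all genes. Col9a1 was at 955 and 687 FPKM (−0.47) and Col11a1 at 768 and 593 FPKM (−0.37), while Col27a1 alone was above 0 at 154 and 173 FPKM (0.17). In the adult pair the median of these collagens was 1.02, where genes of at least 1 FPKM in both adult libraries had a median of 0.23. That difference between ages was not tested.

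Aggrecan and its partners split. Acan, the aggrecan core protein, was at 405 and 487 FPKM (0.26), and Hapln1, the link protein that ties it to hyaluronan, at 847 and 699 FPKM (−0.28). Cd44, a receptor for hyaluronan on chondrocytes and leukocytes, rose from 5.51 to 33.998 FPKM (2.43), and Tnfaip6, whose product modifies hyaluronan during inflammation, rose from 2.42 to 8.003 FPKM (1.40). Has2 and Has1, which encode hyaluronan synthases, were at 11.4 and 7.27 FPKM (−0.58) and 1.95 and 4.39 FPKM (0.87). The enzymes that build glycosaminoglycan chains moved little as a list, with 1 of 26 lower and a median of −0.19. The exception was Chst3, a chondroitin sulfotransferase, which fell from 35.8 to 7.53 FPKM (−2.11).

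The secreted glycoproteins of cartilage held 3 falls among 17 genes and no rise, where 1.30% of all genes were lower and 4.69% higher. Matn1, which encodes matrilin-1, fell from 1661 to 823 FPKM (−1.01). Cilp and Cilp2, cartilage intermediate layer proteins, fell from 152 to 74.9 FPKM (−1.01) and from 84.8 to 22.7 FPKM (−1.85). Matn1 and Cilp lie just past 2-fold, and both fell short of it when the libraries were rescaled by the median of ratios. Comp, an oligomeric matrix protein, was at 1324 and 1984 FPKM (0.58), Chad, which encodes chondroadherin, at 2781 and 2348 FPKM (−0.24), and Cytl1, a cytokine-like cartilage product, at 648 and 359.7 FPKM (−0.85).

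Genes of the surface layer had the lowest median of the matrix lists. Of 6 superficial zone genes, 3 were lower, 0 were higher, and the median was −0.84. Beside Prg4, the transcription factor Creb5 fell from 11.2 to 3.52 FPKM (−1.43) and the thrombospondin Thbs4 fell from 55.9 to 21.5 FPKM (−1.34). Clu, which encodes clusterin, was at 1208 and 965 FPKM (−0.32), and Erg at 13.5 and 10.5 FPKM (−0.34). In the adult pair Prg4 was at 3565 and 2658 FPKM (−0.42).

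Small leucine-rich proteoglycans, which coat collagen fibrils, moved in opposite directions. Dcn, which encodes decorin, rose from 1001 to 2786 FPKM (1.48), and Lum, which encodes lumican, rose from 230.02 to 1437 FPKM (2.64). Fmod and Prelp fell from 1589.6 to 758 FPKM (−1.07) and from 111 to 44.01 FPKM (−1.31). Bgn, the biglycan gene, was at 3467 and 3248 FPKM (−0.094) and Ogn at 270.4 and 269 FPKM (−0.0082). Dcn and Lum are also made by fibroblasts, and of 17 fibroblast and synovial markers 4 were higher, Dcn and Lum among them, and 1 lower.

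Collagens of other tissues and of vessels rose in part. Col1a1, a chain of the type I collagen of bone and scar, rose from 203 to 615 FPKM (1.60), whereas its partner chain Col1a2 was at 557 and 804 FPKM (0.53) and Col3a1 at 537 and 772 FPKM (0.52). Col18a1 rose from 1.56 to 10.99 FPKM (2.23) and the basement membrane collagen Col4a1 rose from 9.35 to 32.9 FPKM (1.71). Falls were seen in Col15a1, from 38.1 to 10.3 FPKM (−1.79), and in Col8a1 and Col8a2. In all, 3 of 16 interstitial collagens were higher and 3 lower, with a median of −0.069. Lox, which crosslinks collagen and elastin, rose from 8.98 to 32.2 FPKM (1.73), and P3h2, a prolyl hydroxylase, fell from 27.9 to 12.7 FPKM (−1.08).

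Genes of a provisional repair matrix held 7 rises and 3 falls among 22 genes. Fn1, which encodes fibronectin, rose from 226 to 1869 FPKM, a log2 ratio of 3.04, and took a level near that of Comp. Postn, which encodes periostin, rose from 10.9 to 60.9 FPKM (2.38), Tnc, which encodes tenascin C, from 14.9 to 41.1 FPKM (1.41), and Fbln2 from 2.17 to 14.7 FPKM (2.30). The 3 that fell were Thbs1, from 412 to 119.9 FPKM (−1.77), Efemp1, from 84.7 to 30.96 FPKM (−1.42), and Fbln7, from 88.6 to 40.6 FPKM (−1.11). Fn1 is also in the list of recruited monocyte markers, and its source among cell types was not tested.

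Genes tied to hypertrophic cartilage did not move as a block, with a median of −0.049 over 13 genes. Spp1, which encodes osteopontin and is made by hypertrophic chondrocytes, bone cells and macrophages, rose from 397 to 2338 FPKM (2.56). Col10a1, the collagen that defines hypertrophic chondrocytes, was at 338 and 302 FPKM (−0.16), and Pth1r at 111 and 114 FPKM (0.04). Mef2c, a transcription factor of hypertrophy, fell from 20.9 to 9.83 FPKM (−1.02), just past 2-fold. The rise of Spp1 and Mmp13 therefore stood beside a level of Col10a1 that differed by less than 2-fold.

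Some matrix metalloproteinases were among the steepest rises of all genes. Of 18 genes, 6 were higher and 0 lower. Mmp13, the main collagenase of cartilage, rose from 25.3 to 474 FPKM (4.17), and Mmp3, the stromelysin that cleaves aggrecan and activates collagenases, rose from 4.99 to 152 FPKM (4.67). Mmp9, a gelatinase of osteoclasts and neutrophils, rose from 66.5 to 227 FPKM (1.76), and Mmp19 rose from 0.318 to 9.26 FPKM (2.96). Mmp12, the macrophage elastase, and Mmp10 were listed at 0 in sham and at 3.3 and 1.62 FPKM after injury. Mmp2 and Mmp14 were at 177 and 138 FPKM (−0.35) and 52.3 and 99.01 FPKM (0.91).

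Of 13 TIMPs and other protease inhibitors 3 were higher and 1 lower, with a median of 0.38. Timp1 rose from 106 to 477 FPKM (2.16), Timp3 rose from 90.03 to 217 FPKM (1.26) and Slpi, an inhibitor of neutrophil elastase, rose from 2.69 to 20.01 FPKM (2.51). Reck, a membrane-anchored inhibitor of metalloproteinases, fell from 60.2 to 29.6 FPKM (−1.001). Among the 18 ADAMTS proteases 1 was higher and 1 lower, beside 4.69% and 1.30% of all genes. Adamts4, an aggrecanase, rose from 0.63 to 2.84 FPKM (1.24), and Adamts3 fell from 11.8 to 5.34 FPKM (−1.02). Adamts5, the other main aggrecanase, was at 0.896 and 1.58 FPKM (0.44).

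The promoters of Mmp3 and Mmp13 are shown because the 2 genes had the largest log2 ratios among metalloproteinases with a level above 0 in both libraries and because both hold the binding motif of AP-1 close to the start. Each line gives the 150 bases before the start from RefSeq on GRCm38.p6, 5′ to 3′ along the gene, with the AP-1 motif TGANTCA in capitals. Mmp3 lies at chr9:7445672-7445821, plus strand, and Mmp13 at chr9:7272364-7272513, plus strand.
Mmp3: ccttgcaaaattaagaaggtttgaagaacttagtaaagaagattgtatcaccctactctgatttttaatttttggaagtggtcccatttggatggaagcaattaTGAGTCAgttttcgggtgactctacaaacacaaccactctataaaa
Mmp13: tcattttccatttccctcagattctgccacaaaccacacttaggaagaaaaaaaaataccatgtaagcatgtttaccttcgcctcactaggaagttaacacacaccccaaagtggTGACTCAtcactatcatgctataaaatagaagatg
In windows from 250 bases before to 50 bases after the start, searched on both strands, the motif stood in 8.46% of 18245 genes with a window, in 94 of the 617 higher genes with a window (15.2%) and in 5 of 14 metalloproteinases (35.7%). The motif is a match of letters, and no binding was measured.

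**Figure D2:**
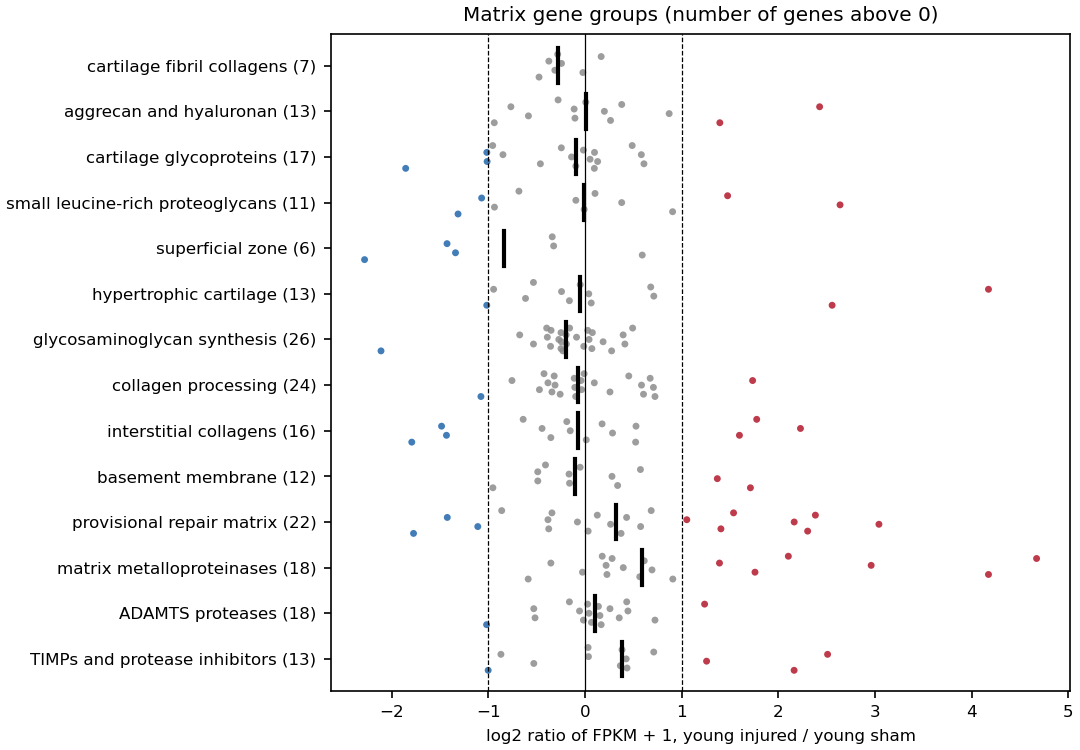
Log2 ratio of FPKM + 1, young injured to young sham, for members of the matrix and protease lists, with each gene above 0 in 1 or both libraries as a point and the median of each list as a line. Metalloproteinases and provisional matrix genes spread far above 0, whereas the superficial zone list has a median of −0.84.

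Among the signalling lists, Hedgehog genes had the lowest median. Hedgehog ligands act through the receptor Ptch1 and the transducer Smo on Gli transcription factors, and Gli1, Ptch1 and Hhip are its usual targets. Of 16 Hedgehog and PTHrP genes, 7 were lower, none was higher and 15 had a ratio below 0. The median was −0.72. Gli1 fell from 37.6 to 12.96 FPKM (−1.47) and Ptch1 from 18.1 to 7.64 FPKM (−1.14), together with Hhip. The co-receptors Gas1 and Boc fell from 113 to 22.3 FPKM (−2.29) and from 120.00 to 46.9 FPKM (−1.34), and Disp1, needed to release the ligand, fell from 18.4 to 7.2 FPKM (−1.24). Pthlh, which encodes parathyroid hormone-related protein, fell from 8.69 to 3.49 FPKM (−1.11). The ligand Ihh was at 2.59 and 1.34 FPKM (−0.61), and Shh was listed at 0 in both. In the adult pair 7 of the genes were lower and the median was −0.68.

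Most Wnt genes stayed within 2-fold, with 7 of 32 lower and 1 higher with 1 FPKM added, against 8 lower and 6 higher with 0.1 FPKM and 2 and 0 with 5 FPKM. Of those 7, 5 encode secreted inhibitors. Wif1, which binds Wnt ligands and is abundant in cartilage, fell from 653 to 248 FPKM (−1.39), Dkk3 from 23.3 to 5.93 FPKM (−1.81) and Notum, which strips a lipid from Wnt, from 7.92 to 1.52 FPKM (−1.82). Sfrp1 and Sfrp2 fell from 11.6 to 3.34 FPKM (−1.54) and from 7.33 to 1.38 FPKM (−1.80). Wnt9a, a ligand of developing joints, fell from 5.03 to 0.374 FPKM (−2.13), and Nkd1, a feedback inhibitor, from 4.001 to 1.07 FPKM (−1.28). Sfrp4 was the member that rose, from 1.28 to 7.54 FPKM (1.90), and Frzb, another abundant antagonist, was at 375 and 388 FPKM (0.051).

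Most BMP genes stayed within 2-fold, with 3 of 25 higher and 4 lower. With 5 FPKM added 1 was higher, Chrdl2, and 0 lower, and with 0.1 FPKM added 5 and 7. With 1 FPKM added the falls were of 3 ligands and a binding protein, and the rises of 3 antagonists. Bmp4 and Bmp6 fell from 10.1 to 2.95 FPKM (−1.49) and from 8.49 to 1.79 FPKM (−1.76), and Gdf5, a joint-forming ligand, fell from 15.2 to 5.996 FPKM (−1.21). Bmper, which binds BMPs, also fell, from 5.22 to 1.42 FPKM (−1.36). The antagonists Grem1, Chrdl1 and Chrdl2 rose from 4.86 to 12.2 FPKM (1.17), from 5.1 to 11.7 FPKM (1.05) and from 7.77 to 30.04 FPKM (1.82). Id1, a target of BMP signals, was at 185 and 201 FPKM (0.12). The TGF-beta and activin list had 0 of 20 genes past 2-fold either way, with Tgfb1 at 12.3 and 19.6 FPKM (0.63) and Tgfb3 at 23.1 and 16.4 FPKM (−0.47).

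In the FGF list Fgf18, a ligand that promotes cartilage growth, fell from 6.54 to 0.969 FPKM (−1.94). Its receptor family member Fgfr2 fell from 36.5 to 14.8 FPKM (−1.25). None of the 22 genes was higher, where 4.69% of all genes were. Fgfr3, the receptor of growth plate cartilage, was at 129 and 89.2 FPKM (−0.53). Among IGF genes, Igfbp3 rose from 1.96 to 13.7 FPKM (2.32) and Igfals fell from 5.24 to 0.885 FPKM (−1.73), while Igf1 was at 6.95 and 8.96 FPKM (0.33). Tgfa, a ligand of the EGF receptor, fell from 10.2 to 3.13 FPKM (−1.44). Kdr and Nrp1, receptors for VEGF, and Pdgfb rose from 1.003 to 4.46 FPKM (1.45), from 4.36 to 12.8 FPKM (1.37) and from 0.958 to 4.81 FPKM (1.57). Kdr is also in the list of endothelial markers. With 5 FPKM added 0 of 24 genes of the EGF, PDGF and VEGF list were past 2-fold. Vegfa was at 26.03 and 19.8 FPKM (−0.38). Of the CCN family, Wisp2 rose from 3.89 to 27.01 FPKM (2.52), whereas Ctgf and Cyr61 were at 1156 and 688 FPKM (−0.75) and 257 and 166 FPKM (−0.63).

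Transcription factors of chondrocytes leaned down, although most stayed within 2-fold. Of 22 genes 16 had a ratio below 0, the median was −0.59, and 2 were lower, against 5 on the TPM scale, 4 with 0.1 FPKM added and 0 with 5 FPKM added. Sox9, the master regulator of cartilage, was at 42.3 and 25.4 FPKM (−0.71), Sox5 at 12.3 and 6.74 FPKM (−0.78) and Sox6 at 14.01 and 8.35 FPKM (−0.68). Barx1 fell from 49.8 to 23.6 FPKM (−1.04) and Nfatc2 from 3.97 to 1.11 FPKM (−1.24). Runx1, a factor of both blood cells and early cartilage, was the one that rose, from 2.26 to 9.55 FPKM (1.69).

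Immediate early genes showed no common direction at day 3. Junb rose from 5.16 to 24.7 FPKM (2.06) and Atf3 from 3.5 to 8.68 FPKM (1.11). Egr1 and the phosphatase gene Dusp1 fell from 15.7 to 7.09 FPKM (−1.05) and from 39.8 to 18.9 FPKM (−1.03), together with Nr4a1, Nr4a2 and Nr4a3. Fos was at 21.3 and 18.2 FPKM (−0.22) and Myc at 5.57 and 6.25 FPKM (0.14). Such genes respond to handling within minutes, and the effect of dissection on them was not tested.

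**Figure D3:**
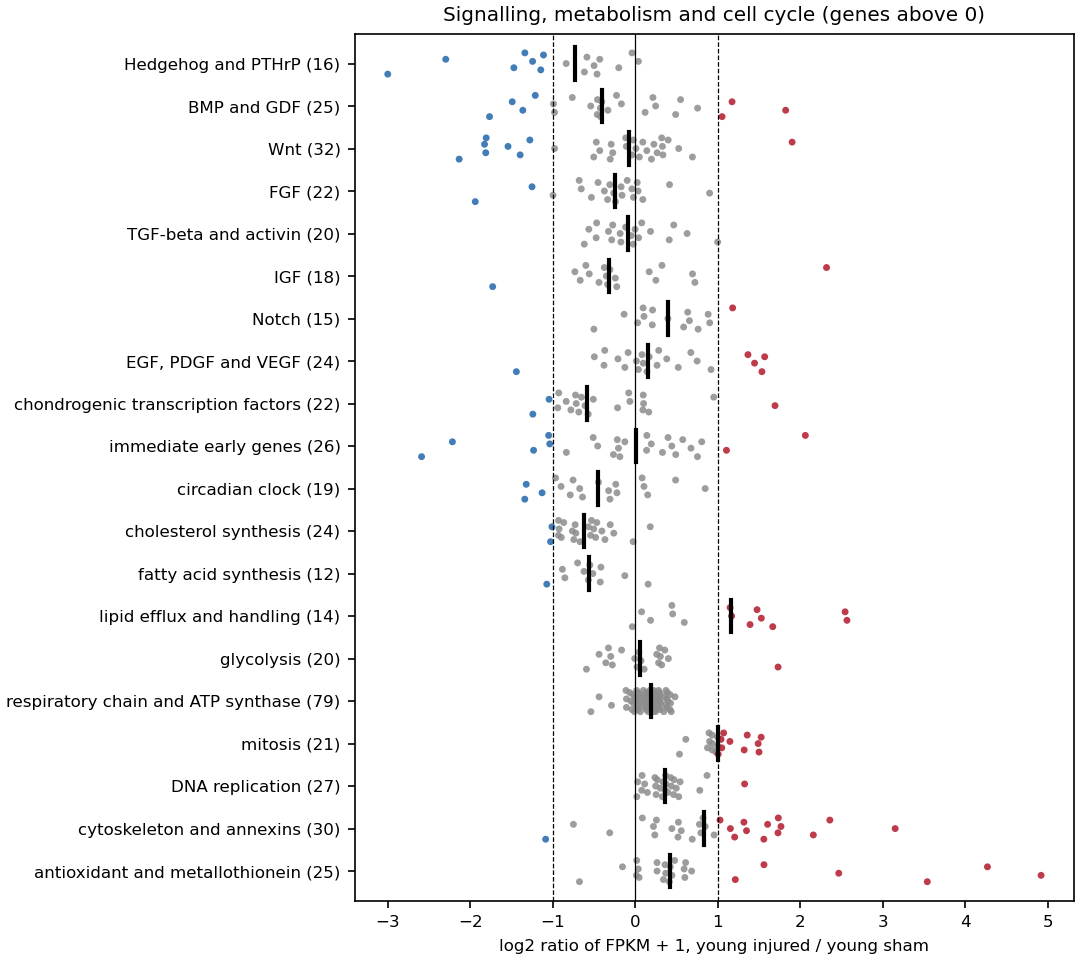
Log2 ratio of FPKM + 1, young injured to young sham, for members of signalling, metabolism and growth lists, with each gene above 0 in 1 or both libraries as a point and the list median as a line. Mitosis genes all lie above 0, whereas nearly all Hedgehog and cholesterol synthesis genes lie below it.

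Metallothioneins and haem oxygenase were among the steepest rises of the stress genes. Metallothioneins bind zinc and copper, and Hmox1 breaks down haem to release iron. Mt1 rose from 13.5 to 168 FPKM (3.54), Mt2 from 4.32 to 159.9 FPKM (4.92) and Mt3 from 2.01 to 7.89 FPKM (1.56), and Hmox1 rose from 8.9 to 189.8 FPKM (4.27). Gpx3 and Gpx1, glutathione peroxidases, rose from 27.95 to 159 FPKM (2.47) and from 43.8 to 103 (1.21). Other antioxidant genes stayed within 2-fold, such as Nqo1 at 26.98 and 34.5 FPKM (0.34) and Sod2 at 12.8 and 15.6 FPKM (0.27). The lists for ER stress, heat shock and hypoxia had no gene past 2-fold in either direction, with medians of −0.06, 0.039 and −0.14. Cdkn1a, a p53 target that halts the cell cycle, was at 19.4 and 29.3 FPKM (0.57).

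The promoters of the metallothioneins are shown because 3 of 3 with a window hold the metal response element. Capitals mark that element, TGCACNC or TGCGCNC, on either strand in the 150 bases before the start on GRCm38.p6, from RefSeq. Mt1 lies at chr8:94178939-94179088, plus strand, and Mt2 at chr8:94172468-94172617, plus strand.
Mt1: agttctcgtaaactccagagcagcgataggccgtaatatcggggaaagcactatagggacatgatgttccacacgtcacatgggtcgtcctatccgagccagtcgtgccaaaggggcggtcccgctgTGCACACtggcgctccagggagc
Mt2: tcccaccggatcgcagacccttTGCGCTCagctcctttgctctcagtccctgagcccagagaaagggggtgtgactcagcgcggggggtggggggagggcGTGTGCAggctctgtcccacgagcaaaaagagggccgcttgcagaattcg
The element is short, and it stood in 32.3% of all windows, in 27.1% of the higher genes and in 42.5% of the lower genes.

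Of 12 iron handling genes 6 were higher, Hmox1 among them, and 1, the BMP ligand Bmp6, was lower, and on the TPM scale 3 were higher. The ferritin chains Fth1 and Ftl1, which store iron, rose from 928 to 1916 FPKM (1.05) and from 704 to 1518 (1.11), and together they went from 1632 to 3435 FPKM. On the TPM scale both chains fell short of 2-fold. The ferroxidase gene Cp rose from 18.3 to 50.1 FPKM (1.41) and Slc11a1, a metal transporter of phagosomes, from 0.68 to 16.7 FPKM (3.39). Tfrc, through which cells take up iron, was at 65.2 and 49.7 FPKM (−0.38). The globin sum stood at a log2 ratio of 0.83 in the same libraries, and the part of blood in these changes was not tested.

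Lipid genes of synthesis and of efflux had medians of opposite sign. Of 24 cholesterol synthesis genes 23 had a ratio below 0 and 2 were lower, Sqle, from 32.9 to 15.9 FPKM (−1.01), and Idi1, from 21.1 to 9.85 FPKM (−1.02). The median was −0.62. Of these genes 7 were lower on the TPM scale, where the sums are made equal and the added 1 also weighs less, 4 with 0.1 FPKM added, and 0 with 5 FPKM added or under median-of-ratios scaling. Hmgcs1, an early step, was at 54.8 and 28.3 FPKM (−0.93). Fatty acid synthesis had a median of −0.56, and Elovl6 fell from 12.3 to 5.33 FPKM (−1.07). In the adult pair the medians of these 2 lists were 0.50 and 0.35, where genes of at least 1 FPKM in both adult libraries had a median of 0.23. In the young pair, 5 of 14 genes of lipid efflux and handling were higher with 5 FPKM added, and their median was 0.55. With 1 FPKM added 8 were higher, and the median was 1.16. Among them the sterol transporters Abca1 and Abcg1 rose from 2.25 to 6.31 FPKM (1.17) and from 0.535 to 3.03 (1.39), Lpl, the lipoprotein lipase, from 5.53 to 17.2 FPKM (1.48), and Fabp5, a fatty acid carrier, from 22.04 to 133 FPKM (2.54).

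Genes of energy metabolism changed by less than 2-fold with few exceptions. No gene of 79 for the respiratory chain and ATP synthase passed 2-fold, and the median was 0.19, with 66 ratios above 0. In glycolysis only Hk3, the hexokinase of leukocytes, was higher, from 1.94 to 8.78 FPKM (1.73), and Ldha was at 878 and 948 FPKM (0.11). Clock output genes fell in part. Dbp fell from 35.2 to 13.3 FPKM (−1.34), Nr1d1 from 37.6 to 16.7 FPKM (−1.13) and Per3 from 11.8 to 4.13 FPKM (−1.32), while Arntl, the clock activator, was at 9.58 and 7.57 FPKM (−0.30). The hour at which cartilage was taken is not given in the sources used here, so the hour and the injury cannot be told apart for these genes. The E-box CACGTG, which reads the same on both strands, stood in 5 of 16 clock genes with a window (31.2%) and in 9.13% of all windows.

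Genes of mitosis all had ratios above 0. Of the 21 genes 10 were past 2-fold, and the median was 0.998. The number past 2-fold was 17 with 0.1 FPKM added, 13 under median-of-ratios scaling, 8 on the TPM scale and under quantile scaling, and 5 with 5 FPKM added. Birc5, which encodes survivin, rose from 11.8 to 35.8 FPKM (1.53), the mitotic cyclin Ccnb1 from 9.23 to 27.95 FPKM (1.501) and Cdk1, the kinase it activates, from 12.4 to 32.5 FPKM (1.32). Mki67, the usual proliferation marker, was at 13.3 and 19.7 FPKM (0.54). DNA replication genes were also all above 0, 27 of 27, but only Tk1, the thymidine kinase, was past 2-fold, from 12.4 to 32.7 FPKM (1.33), and the median was 0.36. Which cells divided was not measured.

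A mitosis and a cholesterol synthesis promoter are set beside each other because the medians of their lists had opposite signs and both hold the CCAAT box. Capitals mark CCAAT on either strand in the 150 bases before the start on GRCm38.p6, from RefSeq. Ccnb1 lies at chr13:100786487-100786636, minus strand, and Hmgcs1 at chr13:119690201-119690350, plus strand.
Ccnb1: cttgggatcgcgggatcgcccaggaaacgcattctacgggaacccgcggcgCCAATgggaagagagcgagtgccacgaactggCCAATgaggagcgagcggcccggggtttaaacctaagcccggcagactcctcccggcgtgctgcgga
Hmgcs1: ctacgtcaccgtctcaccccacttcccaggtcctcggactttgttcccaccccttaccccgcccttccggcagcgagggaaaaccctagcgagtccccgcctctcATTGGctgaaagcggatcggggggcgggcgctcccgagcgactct
The CCAAT box stood in 15 of 17 mitosis genes (88.2%), in 16 of 16 cholesterol synthesis genes and in 42.3% of all windows. It also stood in 81.2% of clock genes and 70.6% of MHC class I and immunoproteasome genes, but in 28.6% of metalloproteinases. The letters TTTGAA, part of a cell cycle element, stood in 12 of 17 mitosis genes (70.6%) and in 17.9% of all windows. The sterol regulatory element, searched in 1 spelling on both strands, stood in 0 of 16 cholesterol synthesis genes and in 0.296% of all windows.

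The cytoskeleton and annexin list had 13 of 30 genes higher and a median of 0.84. Vim, which encodes vimentin, rose from 644 to 1434 FPKM (1.15), Tmsb4x, an actin-binding peptide, from 216 to 969.7 FPKM (2.16), and S100a4 and S100a6 from 31.3 to 285 FPKM (3.15) and from 84.7 to 438 FPKM (2.36). Acta2, the actin of smooth muscle and myofibroblasts, fell from 95.7 to 44.6 FPKM (−1.08). Actb was at 602 and 1169 FPKM (0.96). Many of these genes are abundant in leukocytes, as is Coro1a, which rose from 26.9 to 83.9 FPKM (1.60).

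**Figure D4:**
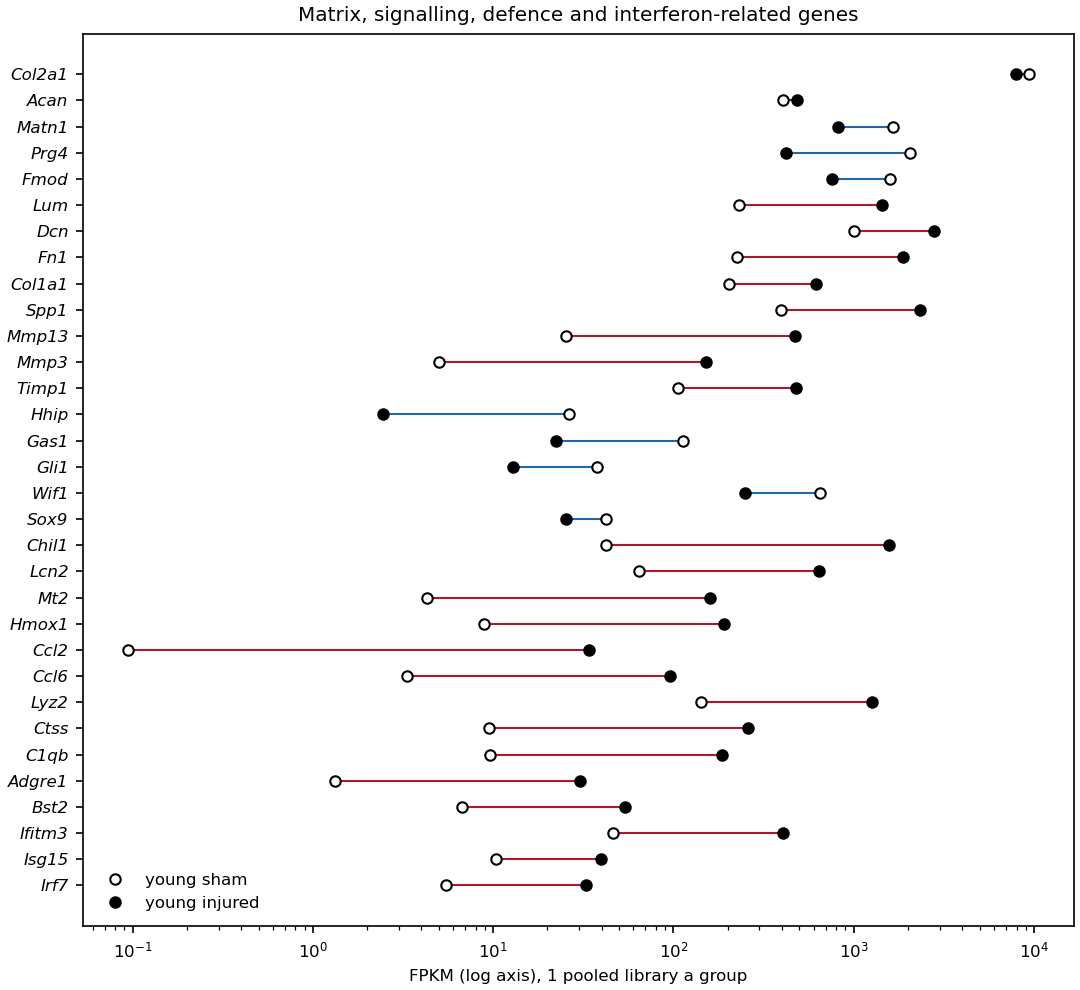
FPKM in young sham and young injured cartilage on a log axis for genes that the results turn on, grouped by role, with 1 pooled library per point. Cartilage collagen and aggrecan stay near the same level, whereas proteases, metallothioneins, chemokines and interferon effectors lie higher in injured cartilage and Prg4 and Hedgehog targets lower.

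Of 18 acute phase and secreted defence genes 12 were higher and none lower, with a median of 1.43. Serpina3n, a protease inhibitor, rose from 52.6 to 716 FPKM (3.74), and Lcn2, which withholds iron from bacteria, rose from 64.6 to 639 FPKM (3.29). The serum amyloid gene Saa3 rose from 0.0719 to 24.6 FPKM (4.58). With Chil1 and Bpifb1 these genes reached levels of 24.6 to 1576 FPKM in injured cartilage. Haptoglobin, the product of Hp that binds free haemoglobin, rose from 16.4 to 45.6 FPKM (1.42).

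Some chemokines rose in the CC and the CXC family, with 9 of 18 and 8 of 15 higher and none lower. With 5 FPKM added 6 and 3 were higher, and with 0.1 FPKM added 12 and 9, with 1 CC chemokine lower. Ccl6 rose from 3.34 to 95.9 FPKM (4.48) and Ccl9 from 0.994 to 27.2 FPKM (3.82). Ccl7, Ccl8 and Ccl3 were listed at 0 in sham and at 16.5, 5.2 and 2.9 FPKM after injury. Most of these attract monocytes. Cxcl10, an interferon-induced ligand, rose from 0.0512 to 7.61 FPKM (3.03), and Cxcl12, which holds leukocytes and progenitors in marrow, rose from 22.3 to 49.1 FPKM (1.11). The neutrophil attractant Cxcl1 rose from 0.121 to 2.66 FPKM (1.71). Of the receptors, Ccr2, which reads Ccl2, rose from 1.64 to 23.8 FPKM (3.23) and Ccr1 from 0.896 to 12.6 FPKM (2.84).

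Counts of higher cytokine genes depended on the added 1 FPKM. Higher were 5 of 17 genes of the interleukin-1 family and inflammasome, 4 of 17 of the interleukin-6 family, 4 of 9 colony stimulating factor genes and 5 of 23 of TNF and NF-kB, and none was lower. In the interleukin-1 list 14 were higher with 0.1 FPKM added, 11 on the TPM scale and 2 with 5 FPKM added, and in the interleukin-6 list 8, 6 and 2. Il1b rose from 0.394 to 8.27 FPKM (2.73), its antagonist Il1rn from 0.229 to 2.91 FPKM (1.67) and the IL-33 receptor Il1rl1 from 0.227 to 8.84 FPKM (3.003). Tnf rose from 0.168 to 2.02 FPKM (1.37), and Il6 was listed at 0 in sham and at 0.334 FPKM after injury. Some receptors and feedback genes of these families were also higher. Osmr, the receptor chain for oncostatin M, rose from 8.42 to 39.7 FPKM (2.11), and Socs3, a feedback inhibitor of this family, rose from 5.54 to 21.8 FPKM (1.80). Csf1r, the receptor that macrophages need to survive, rose from 7.9 to 47.6 FPKM (2.45), while its ligand Csf1 was at 10.1 and 14.3 FPKM (0.47). Bcl3, a regulator of NF-kB, rose from 1.17 to 10.1 FPKM (2.35), whereas Nfkb1 and Rela were at 11.6 and 16.1 FPKM (0.45) and 8.58 and 10.7 FPKM (0.29).

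Innate receptors of myeloid cells had the highest share of rises of all 102 gene lists with 1 FPKM added. Of 28 Fc receptor, TREM and C-type lectin genes 26 were higher, with a median of 2.22, where 4.69% of all genes were higher. Trem2, a lipid-sensing receptor, rose from 1.39 to 38.3 FPKM (4.04), Fcgr1 from 0.295 to 18.05 FPKM (3.88) and the shared adaptor Tyrobp from 25.5 to 175 FPKM (2.73). Cd14, which presents bacterial lipid to Toll-like receptors, rose from 2.47 to 21.6 FPKM (2.70), while Tlr2 and Tlr4 were at 7.45 and 12.6 FPKM (0.69) and 2.25 and 4.47 FPKM (0.75). Macrophage markers moved with these genes, 18 of 20 of them higher. With 5 FPKM added, 17 of the innate receptor genes were higher, a smaller share than that of macrophage markers, 16 of 20, and of recruited monocyte markers, 10 of 14.

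Of 25 complement genes 11 were higher and none lower, with a median of 0.59. On the TPM scale 11 were higher and 3 lower, and with 0.1 FPKM added 14 and 2. The 3 chains of C1q, the recognition molecule, summed to 26.0 FPKM in sham and 395 FPKM in injured cartilage, a log2 ratio of 3.87. C4b rose from 11.1 to 80.4 FPKM (2.76), Cfb from 1.37 to 24.6 FPKM (3.43), C3 from 4.15 to 10.8 FPKM (1.20), and the receptor C3ar1 from 0.735 to 31.9 FPKM (4.25). The inhibitor Serping1 rose from 3.54 to 8.56 FPKM (1.08). Cfd, an adipocyte protease that starts the alternative pathway, was at 19.8 and 9.86 FPKM (−0.94).

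Most lysosomal genes stayed within 2-fold, with 6 of 30 higher and none lower. Ctss, the cathepsin that trims the invariant chain for MHC class II, rose from 9.43 to 258 FPKM (4.63), Ctsc from 1.44 to 21.4 FPKM (3.20), Lgmn from 34.9 to 209 FPKM (2.55) and Ctsb from 119 to 337 FPKM (1.496). Ctsk, the collagen-cleaving cathepsin of osteoclasts, was at 87.4 and 171 FPKM (0.96). Of 8 oxidase genes 6 were higher, such as Ncf1, from 6.82 to 31.8 FPKM (2.07), and Cybb, from 4.37 to 12.99 FPKM (1.38). In the leukotriene branch of the eicosanoids, Alox5ap and Ltc4s rose from 8.78 to 85.9 FPKM (3.15) and from 1.58 to 20.1 (3.03). Ptgs2, the inducible cyclooxygenase, rose from 0.166 to 2.75 FPKM (1.68) at a low level. Plau and its receptor Plaur, which start plasmin formation, rose from 1.31 to 14.4 FPKM (2.73) and from 5.26 to 23.2 (1.95).

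Antigen presentation genes were higher in part, 7 of 20 of MHC class I and the immunoproteasome and 6 of 13 of class II, and none was lower. B2m and the class I chains H2-K1 and H2-D1 rose from 219 to 485 FPKM (1.14), from 45.8 to 139.9 FPKM (1.59) and from 53.1 to 162 FPKM (1.59), and the immunoproteasome gene Psmb8 rose from 4.62 to 22.1 FPKM (2.04). Class II genes such as H2-Aa rose from 10.6 to 53.6 FPKM (2.23), and Cd74, the invariant chain, from 28.8 to 76.3 FPKM (1.37). Their regulator Ciita was at 0.223 and 0.559 FPKM (0.35).

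Interferon effectors all had ratios above 0. Of 37 type I interferon effector genes 28 were higher, and the median was 1.79. With 5 FPKM added 15 were higher and the median was 0.82. Bst2, which tethers virus particles, rose from 6.76 to 54.1 FPKM (2.83), Ifi27l2a from 12.04 to 86.04 FPKM (2.74) and Ifit3 from 1.84 to 24.6 FPKM (3.17). Irf7, the factor that amplifies the response, rose from 5.46 to 32.7 FPKM (2.38), and Ifitm3, which blocks virus entry, from 46.4 to 406 FPKM (3.10). Stat2, which carries the interferon signal to the nucleus, was at 5.89 and 10.9 FPKM (0.79) and Irf1 at 11.2 and 21.7 FPKM (0.89). Interferon-inducible GTPases had 6 of 16 higher, among them Irgm2, from 3.53 to 11.2 FPKM (1.43), against 13 with 0.1 FPKM added and 0 with 5 FPKM added. The ligand genes were near 0. Ifng was listed at 0 in both libraries, and Ifnb1 was listed at 0 in sham and at 0.0493 FPKM after injury. The receptors Ifnar2 and Ifngr1 were at 30.2 and 42.3 FPKM (0.47) and 24.2 and 36.5 FPKM (0.57). In the adult pair 17 of the effectors were higher and their median was 0.90, and for Ifit3 the adult log2 ratio was 0.28. Genes of at least 1 FPKM in both adult libraries had a median of 0.23. Macrophages and monocytes express these genes as well, and the part of their markers in the rise was not tested.

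Promoters of 2 effectors are shown for the interferon-stimulated response element, through which type I interferon acts on such genes. Capitals mark the letters GAAANNGAAA on either strand, with overlapping matches joined, in the 150 bases before the start on GRCm38.p6, from RefSeq. Isg15 lies at chr4:156200819-156200968, minus strand, and Ifit1 at chr19:34640739-34640888, plus strand.
Isg15: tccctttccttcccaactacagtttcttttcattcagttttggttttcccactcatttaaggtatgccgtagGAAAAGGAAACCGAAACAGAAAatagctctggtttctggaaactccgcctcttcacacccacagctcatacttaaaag
Ifit1: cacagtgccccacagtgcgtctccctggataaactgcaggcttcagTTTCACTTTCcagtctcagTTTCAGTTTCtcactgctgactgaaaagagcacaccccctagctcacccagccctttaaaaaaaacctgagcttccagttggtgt
Isg15, a ubiquitin-like modifier, rose from 10.4 to 39.5 FPKM (1.83), and Ifit1, which binds foreign RNA, rose from 0.897 to 11.9 FPKM (2.76). The element stood in 3.93% of all windows, in 74 of 617 higher genes (12.0%), in 7 of 160 lower genes (4.38%), in 14 of 28 interferon effectors with a window, in 10 of 10 GTPases and in 5 of 17 MHC class I and immunoproteasome genes (29.4%).

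Macrophage markers had the highest median among the cell type lists. Of 20 markers 18 were higher with a median of 2.97. Lyz2, the lysozyme of myeloid cells, rose from 142 to 1271 FPKM (3.16), with 32.8% of its words shared with other genes. Adgre1, which encodes F4/80, rose from 1.33 to 30.3 FPKM (3.74) and Cd68 from 10.3 to 102 FPKM (3.19). Markers of recruited monocytes rose in 11 of 14, such as Ly6c2, from 14.04 to 33.9 FPKM (1.21). Among resident macrophage markers 6 of 12 were higher, Trem2 (4.04) the most, and none lower. Their median was 0.77, and 9 ratios were above 0. Of the members that did not reach 2-fold, Timd4, Vsig4 and Lyve1 were at 0.21 and 0.295 FPKM, 1.84 and 0.717 FPKM and 2.99 and 1.02 FPKM.

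Macrophage activation genes of both textbook kinds were present. Of the classical list 7 of 14 were higher, against 12 with 0.1 FPKM added and 1 with 5 FPKM added. Nos2, its best known enzyme, was at 0.00917 and 0.341 FPKM (0.41). Of the alternative list 6 of 17 were higher, against 11 and 5 with those added values. Mrc1, the mannose receptor, rose from 1.9 to 20.02 FPKM (2.86), Msr1, a scavenger receptor, from 0.372 to 19.6 FPKM (3.91), and Il4ra from 1.47 to 14.1 FPKM (2.61). Chil3 was at 29.1 and 44.7 FPKM (0.60) and Retnla at 0.894 and 2.57 FPKM (0.91). Genes of lipid-laden macrophages were higher in 12 of 16, with Gpnmb at 0.372 and 12.1 FPKM (3.25) and Cd36 at 2.54 and 23.1 FPKM (2.76).

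Neutrophil genes were listed by stage. Early granule genes such as Elane and Mpo, made in marrow precursors, were at 15.6 and 18.6 FPKM (0.24) and 16.01 and 14.03 FPKM (−0.18), and 0 of 6 were higher. Of the late granule markers 4 of 10 were higher, with a median of 0.82. Of the mature markers 9 of 13 were higher, and 5 with 5 FPKM added. The difference between stages was not tested. S100a8 and S100a9, the calprotectin chains, rose from 406 to 845 FPKM (1.06) and from 500.2 to 1074 (1.10), and Ly6g was at 3.000 and 6.33 FPKM (0.87). On the TPM scale S100a8 and S100a9 fell short of 2-fold. Markers of B cells, of T and NK cells, of mast cells and of eosinophils and basophils had no member past 2-fold with 1 FPKM added. Of T and NK cell markers 15 of 15 had a ratio above 0 and 12 had a mean under 1 FPKM, and their sum went from 4.38 to 9.53 FPKM. With 0.1 FPKM added 9 of them were higher, and their median was 1.11 instead of 0.33. Cd79a was at 16.9 and 23.8 FPKM (0.47), and Cd3e was at 0.133 and 0.159 FPKM.

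Vessel and bone genes rose in part. Of 20 endothelial markers 13 were higher and their sum went from 44.1 to 159 FPKM. With 5 FPKM added 6 were higher and their median was 0.63 instead of 1.36. Pecam1 rose from 3.52 to 17.8 FPKM (2.05), Emcn from 2.11 to 15.6 FPKM (2.42) and Cdh5 from 1.96 to 9.99 FPKM (1.89). Of the osteoclast markers 6 of 15 were higher, with Acp5, the tartrate-resistant phosphatase, from 122 to 306 FPKM (1.31). Of the osteoblast and osteocyte markers 4 of 17 were higher and none lower. These were Col1a1, Pdpn, which rose from 14.2 to 41.1 FPKM (1.47), Ifitm5, which rose from 5.62 to 13.1 FPKM (1.09), and Dmp1, which rose from 12.4 to 27.4 FPKM (1.08) but fell short of 2-fold on the TPM scale. Sp7 was at 20.3 and 17.2 FPKM (−0.23) and Bglap at 96.8 and 102 FPKM (0.07). Platelet markers were higher in 4 of 12, and Pf4, which macrophages can also make, rose from 6.37 to 91.4 FPKM (3.65).

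Of 19 erythroid markers 2 were higher and none lower, with a median of 0.36. They were the globin Hbb-bs, 54.4% of whose words are shared, and Fech, the last enzyme of haem synthesis, which rose from 21.03 to 43.8 FPKM (1.02) but fell short of 2-fold on the TPM scale. The abundant globins Hbb-b1 and Hba-a2 had log2 ratios of 0.72 and 0.89, and 92.6% of the words of Hba-a2 are shared with its copy. Shared words were not determined for Hbb-b1 and Hbb-b2, and Hbb-b1 was at 0.244 and 2676 FPKM in the adult pair where Hbb-bs was at 2868 and 83.4 FPKM, so that the values of single beta-globin genes are uncertain. Klf1, a factor of red cell precursors, was at 5.25 and 5.52 FPKM (0.062). Skeletal muscle markers had 3 of 20 lower and a median of −0.066, against −1.34 in the adult pair.

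**Figure D5:**
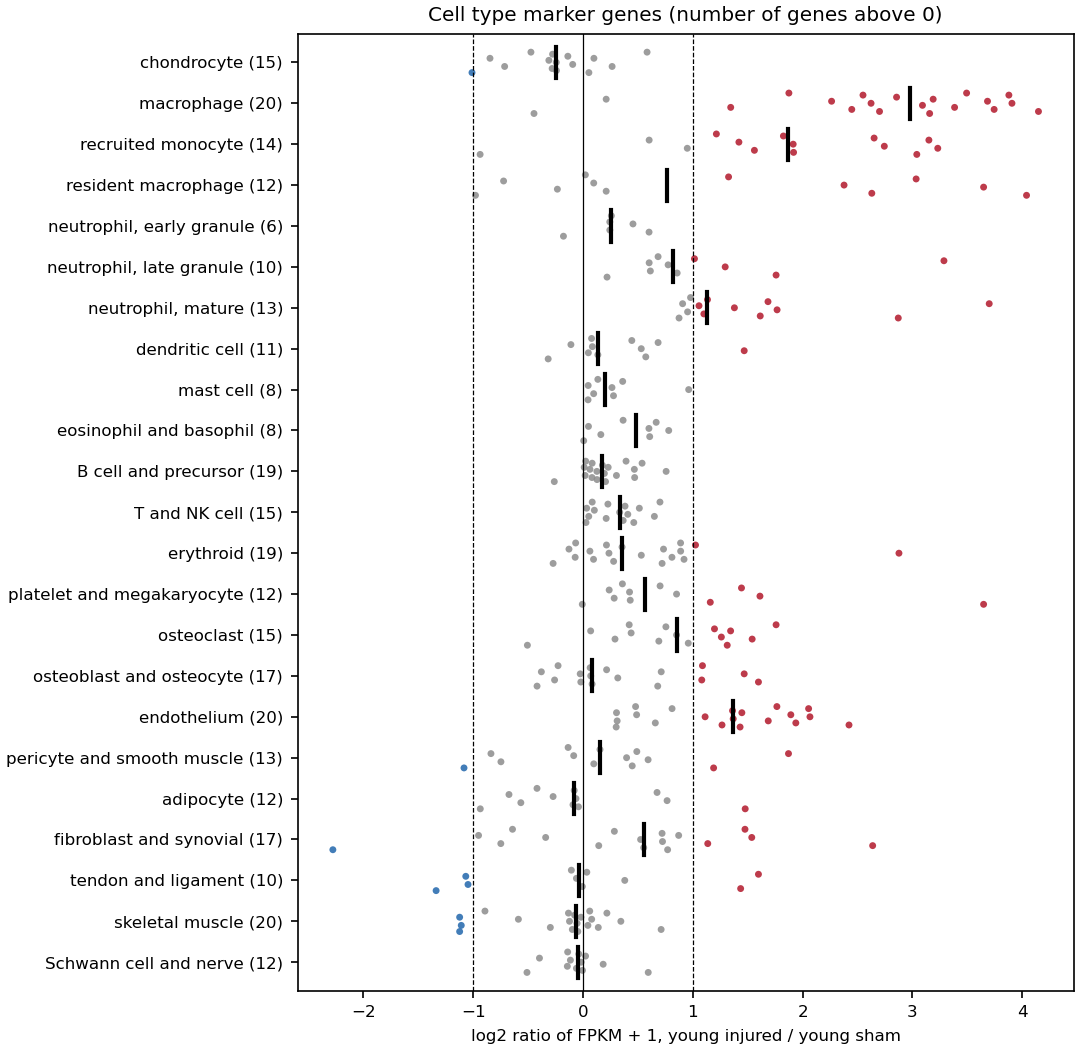
Log2 ratio of FPKM + 1, young injured to young sham, for cell type marker lists, with each gene above 0 in 1 or both libraries as a point and the list median as a line. Macrophage, recruited monocyte and endothelial markers lie highest, with medians of 2.97, 1.87 and 1.36, and chondrocyte markers have a median of −0.24.

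Genes outside the lists took a large part in the response. The 102 lists hold 1791 genes of the table, and they took in 347 of the 830 higher and 65 of the 230 lower genes. The other 483 higher and 165 lower genes belonged to none of them.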

How the data were processed

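Cartilage RNA of 4 groups, the sham and injured joints of young and of adult mice, was sequenced by the authors as 1 poly-A, strand-specific, paired-end library per group. The authors deposited FPKM per gene on mm10, normalized to transcript length and mapped fragments. The submitters' processing notes name HISAT2 2.1.0, HISAT, StringTie 1.3.4d, STAR and SAMtools, without their roles. The 4 value columns were matched to libraries by name, and 0 other columns of samples were found.

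Log2 ratios of FPKM + 1 were calculated for every gene, and a gene was called at 2-fold. With 1 library per group no p-value or SD can be given. Genes named in the text are the 15 steepest rises and 15 steepest falls in log2 ratio where the mean reached 5 FPKM, the 10 largest each way in FPKM, members of 102 lists, and genes the study measured by other means, some of which are not reported here. The comparison, the lists and the members named were chosen with earlier results of these data known. Transcripts were cut into words of 31 bases, and the percentage of words found in any other gene was taken as shared sequence. For promoters, 16 motifs were looked at and 7 are described, in windows from 250 bases before to 50 bases after the start (RefSeq, GRCm38.p6). Depth could be read only from steps of the lowest FPKM, so that precision of single genes is unknown. The scripts were checked on simulated data. Alternatives were pseudocounts of 0.1 and 5 FPKM, a filter at 1 FPKM, TPM, median-of-ratios and quantile scaling, thresholds of 1.5-fold and 3-fold, and lists or genes left out. Python 3.11.15, numpy 2.4.6, pandas 2.3.3, scipy 1.17.1 and matplotlib 3.10.9 were used.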

Additional observations from a re-analysis of the deposited data

Results flagged for a closer look

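In 7 of the genes named or listed that were above 0 in all 4 libraries, the log2 ratio of injured to sham cartilage was past 2-fold in opposite directions in young and in adult mice. The young values of Matn1 and Idi1 fell short of 2-fold under median-of-ratios scaling, and those of Angptl7, Sfrp1, Grem1 and Idi1 with 5 FPKM added. In the adult pair genes of at least 1 FPKM in both libraries had a median of 0.23, from which the adult values of Sfrp1 and Idi1 were less than 2-fold away. The difference between the ages was not tested, since each age has 1 library per group, and the ages have separate sham libraries. Matn1, the matrilin gene, had −1.01 in young and 2.28 in adult cartilage, with 1661 and 823 FPKM in the young pair against 2.65 and 16.8 FPKM in the adult pair. The Wnt antagonist Sfrp1 had −1.54 in young and 1.01 in adult cartilage, where it was at 0.259 and 1.54 FPKM. The BMP antagonist Grem1 had 1.17 in young and −1.29 in adult cartilage, where its levels were 49.98 and 19.9 FPKM. Idi1, a cholesterol synthesis enzyme, had −1.02 in young and 1.02 in adult cartilage. Angptl7, an angiopoietin-like factor, had 1.31 in young and −2.68 in adult cartilage, with 0.273 and 2.15 FPKM in the young pair and 18.3 and 2.03 FPKM in the adult pair.

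Amd1, an enzyme of polyamine synthesis, had 3.71 in young and −1.89 in adult cartilage, and 82.8% of its transcript words are shared with another gene. The globin gene Hbb-bs had 2.88 in young and −5.09 in adult cartilage, and 54.4% of its words are shared. Its levels were 106 and 783 FPKM in the young and 2868 and 83.4 FPKM in the adult pair. The values of both genes are uncertain for that reason. Gm13363, listed at 0 in young injured cartilage, was left out of the count, with 14.9 FPKM in young sham and 0 and 3.83 FPKM in the adult pair.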

How the results depend on the processing

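No paired analysis was possible because 1 library per group leaves no pairs to block. Counts of changed genes depended on the pseudocount and the threshold. With 0.1 FPKM added, 1817 genes were higher and 768 lower (2585 in all), and with 5 FPKM added, 343 and 79 (422). At 1.5-fold 1727 were higher and 874 lower (2601), and at 3-fold 368 and 49 (417). Rescaling to TPM, which makes the sums equal and also lowers the weight of the added 1, moved the median ratio of the 11833 genes of at least 1 FPKM in both libraries by −0.11 and gave 973 higher and 430 lower genes, against 830 and 230. Median-of-ratios scaling gave 861 and 208, quantile scaling 752 and 283, and leaving out erythroid, neutrophil, B cell, skeletal muscle and osteoclast markers 810 and 227. How much of the TPM shift came from the equal sums and how much from the added 1 was not tested. Of 102 lists 13 had a median past 2-fold, against 30 with 0.1 FPKM added, 5 with 5 FPKM added and 23 of 101 with a filter at 1 FPKM. Of the 69 genes named as extremes or measured by the study 52 were past 2-fold, and none changed sign. Of 412 list members past 2-fold, 404 stayed so under median-of-ratios scaling, 399 under TPM, 393 under quantile scaling and 232 with 5 FPKM added, and 0 changed sign. Those lost under median-of-ratios scaling were Matn1, Mef2c, Dusp1, Sqle, Reck, Cilp, Idi1 and Adamts3. Fth1, Ftl1, S100a8, S100a9 and Dmp1 were among the 13 lost under TPM, and B2m among the 19 lost under quantile scaling. The only list median above 0.1 in size to change sign was that of arginine and polyamines, with the filter.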
